A study of Homo sapiens with 4 samples.

Results

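The genes described here are the matrix metalloproteinases, the ADAMTS proteinases and their tissue inhibitors. Every protein-coding gene of the GENCODE 44 annotation named MMP, ADAMTS or TIMP, followed by a number and at most 1 letter, was taken, which gave 46 of 20033 protein-coding genes (23 MMP, 19 ADAMTS and 4 TIMP genes). The rule reads gene names alone. The measurements were lists of ChIP-seq peaks from MDA-MB-231, an established human breast cancer line, whose cells carried a bacterial artificial chromosome with Smad2 or Smad3 fused at the C-terminus to the LAP tag, which contains GFP. The tagged Smad was precipitated with an anti-GFP antibody, so the peaks refer to the tagged protein in a drug-selected, GFP-sorted stable population that also holds its own untagged Smads. Each line was left untreated or given 10 ng/mL TGFβ-1 for 2 h, with 1 library per condition (4 libraries), so differences between conditions were not checked by replicates and no test between them was made. Intervals in the text are 95% Wilson intervals over genes or peaks and cover counting error only. Read depth was unknown from the peak lists. The 2 untreated lists carry opposite Smad names in their sample labels and in the names inside the files, so they are called by their labels here and no direction is drawn from which Smad they belong to. The lists held 11266 peaks (labelled LAP-Smad2 untreated), 3511 (labelled LAP-Smad3 untreated), 26828 (LAP-Smad2 with TGFβ-1) and 62551 (LAP-Smad3 with TGFβ-1), and shares of genes with a peak follow these lengths.

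MMPs are zinc-dependent endopeptidases that are made as inactive precursors and cleave collagens, other matrix proteins and cell-surface proteins once their propeptide is removed. ADAMTS proteinases share the metalloproteinase domain but carry thrombospondin repeats, and they process procollagens, cleave proteoglycans such as aggrecan and versican, or cleave von Willebrand factor. TIMPs block the active site of these enzymes. TGFβ-1 signals through receptor kinases that phosphorylate Smad2 and Smad3, which then enter the nucleus with Smad4, and in breast cancer cells the pathway is known for changing matrix turnover and invasion. Smad3 binds DNA at the sequence CAGAC and at GC-rich sequences such as GGCGC, whereas the common form of Smad2 carries an insert next to its DNA-binding hairpin. ChIP peaks mark where the tagged protein was enriched, not whether the gene was transcribed, and no RNA was measured in these libraries.

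To show what the sites look like, the windows below were read from the plus strand of hg38, 5′ to 3′, with CAGAC or its complement GTCTG and GGCGC or its complement GCGCC in capitals (overlapping matches run together). First come the stretches common to both TGFβ-1 lists, since these are sites where both tagged Smads had a peak. The 4 shown are those whose sequence was not repeated elsewhere in the genome.
ADAMTS13, chr9:133418098-133418212: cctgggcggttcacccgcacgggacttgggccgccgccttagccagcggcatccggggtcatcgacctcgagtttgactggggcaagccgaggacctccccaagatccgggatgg
ADAMTS14, chr10:70724501-70724569: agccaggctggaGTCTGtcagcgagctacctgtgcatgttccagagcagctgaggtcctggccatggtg
ADAMTS16, chr5:5318067-5318266: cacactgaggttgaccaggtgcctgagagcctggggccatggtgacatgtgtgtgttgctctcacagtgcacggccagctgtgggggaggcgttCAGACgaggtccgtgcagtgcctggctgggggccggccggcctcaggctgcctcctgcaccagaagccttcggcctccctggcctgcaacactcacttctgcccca
TIMP2, chr17:78935343-78935542: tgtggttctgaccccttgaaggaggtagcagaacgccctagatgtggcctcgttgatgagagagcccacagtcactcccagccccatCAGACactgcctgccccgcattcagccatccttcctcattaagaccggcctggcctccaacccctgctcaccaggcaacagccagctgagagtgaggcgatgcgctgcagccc

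Next come the central 200 bases of promoter peaks with high −log10 q that were not repeated sequence. The first group was in the LAP-Smad2 list with TGFβ-1 and shows the GC-rich kind of site seen there.
MMP14, chr14:22837398-22837597: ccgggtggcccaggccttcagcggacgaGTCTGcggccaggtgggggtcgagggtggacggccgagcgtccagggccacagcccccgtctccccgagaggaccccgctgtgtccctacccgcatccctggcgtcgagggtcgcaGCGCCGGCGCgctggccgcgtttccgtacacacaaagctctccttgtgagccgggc
MMP28, chr17:35770064-35770263: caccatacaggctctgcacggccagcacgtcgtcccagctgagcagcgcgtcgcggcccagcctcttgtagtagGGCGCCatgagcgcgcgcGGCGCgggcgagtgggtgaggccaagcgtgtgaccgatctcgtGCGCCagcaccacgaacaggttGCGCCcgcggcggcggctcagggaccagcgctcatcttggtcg
MMP24, chr20:35227056-35227255: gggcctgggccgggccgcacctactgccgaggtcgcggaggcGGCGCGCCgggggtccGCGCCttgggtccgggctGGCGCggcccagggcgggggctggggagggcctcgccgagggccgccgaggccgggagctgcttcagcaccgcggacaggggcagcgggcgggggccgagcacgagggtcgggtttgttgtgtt
MMP21, chr10:125773729-125773928: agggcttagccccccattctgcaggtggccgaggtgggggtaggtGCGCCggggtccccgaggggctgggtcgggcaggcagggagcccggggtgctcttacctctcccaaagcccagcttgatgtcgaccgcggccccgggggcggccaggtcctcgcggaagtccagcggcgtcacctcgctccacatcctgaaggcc

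The other group was in the LAP-Smad3 list with TGFβ-1, where the promoter windows had a lower GC content. MMP21 is shown for both Smads, since its promoter had a peak in both lists at separate positions.
TIMP2, chr17:78923986-78924185: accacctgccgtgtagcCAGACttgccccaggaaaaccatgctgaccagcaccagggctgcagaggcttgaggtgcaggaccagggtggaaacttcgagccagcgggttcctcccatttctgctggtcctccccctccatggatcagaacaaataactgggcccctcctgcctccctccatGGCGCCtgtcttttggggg
ADAMTS9, chr3:64685770-64685969: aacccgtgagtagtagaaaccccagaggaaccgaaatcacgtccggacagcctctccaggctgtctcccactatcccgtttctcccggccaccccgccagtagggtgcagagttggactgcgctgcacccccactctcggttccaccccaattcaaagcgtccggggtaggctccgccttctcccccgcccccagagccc
ADAMTS4, chr1:161193752-161193951: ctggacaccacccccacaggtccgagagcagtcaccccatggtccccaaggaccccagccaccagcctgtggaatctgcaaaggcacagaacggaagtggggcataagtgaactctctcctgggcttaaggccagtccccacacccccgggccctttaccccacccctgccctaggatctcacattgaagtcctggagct
MMP21, chr10:125769224-125769423: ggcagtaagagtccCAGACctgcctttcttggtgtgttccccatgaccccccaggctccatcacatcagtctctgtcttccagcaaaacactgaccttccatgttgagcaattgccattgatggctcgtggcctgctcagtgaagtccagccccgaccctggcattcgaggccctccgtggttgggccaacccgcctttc

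Peaks were assigned to a gene when they overlapped its span widened by 10 kb on each side. Of the 46 genes, 25 had a peak in the LAP-Smad2 list with TGFβ-1 (54.3%, interval 40.2 to 67.8), against 55.9% of the other 19987 protein-coding genes. In the LAP-Smad3 list with TGFβ-1, 33 had a peak (71.7%, interval 57.5 to 82.7), against 74.3% of the others. The untreated lists touched fewer of them: 14 genes in the untreated library labelled LAP-Smad2 (30.4%, background 22%) and 6 in the untreated library labelled LAP-Smad3 (13.0%, background 9.13%). Each of these shares lies near its background, and the interval of each (19.1 to 44.8 and 6.12 to 25.7 for the untreated libraries) spans it. Genes of like length were taken as the 200 next shorter and 200 next longer genes for each member, and they had a peak in 58.6% and 78.1% of cases after TGFβ-1 in the LAP-Smad2 and LAP-Smad3 lists. After TGFβ-1, 22 of the 46 genes had a peak in both lists, 3 in the LAP-Smad2 list alone, 11 in the LAP-Smad3 list alone and 10 in neither. These shares (47.8%, 6.52%, 23.9% and 21.7%) lie near those of other genes (46.99%, 8.88%, 27.3% and 16.8%). Across the 4 lists 38 genes had at least 1 peak, and the 8 with none were MMP1, MMP7, MMP10, MMP12, MMP13, MMP15, MMP19 and MMP27, all from the MMP family. Taken by their labels, 15 genes had a LAP-Smad2 peak with TGFβ-1 and none in the untreated library of that Smad, and 29 did so for LAP-Smad3. With the untreated libraries assigned by the names inside the files, these counts were 19 and 21. They were not made for other genes, so they have no background. Over other genes too, more had a peak in the TGFβ-1 lists (55.9% and 74.3%) than in the untreated lists (22% and 9.13%).

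**Figure D1:**
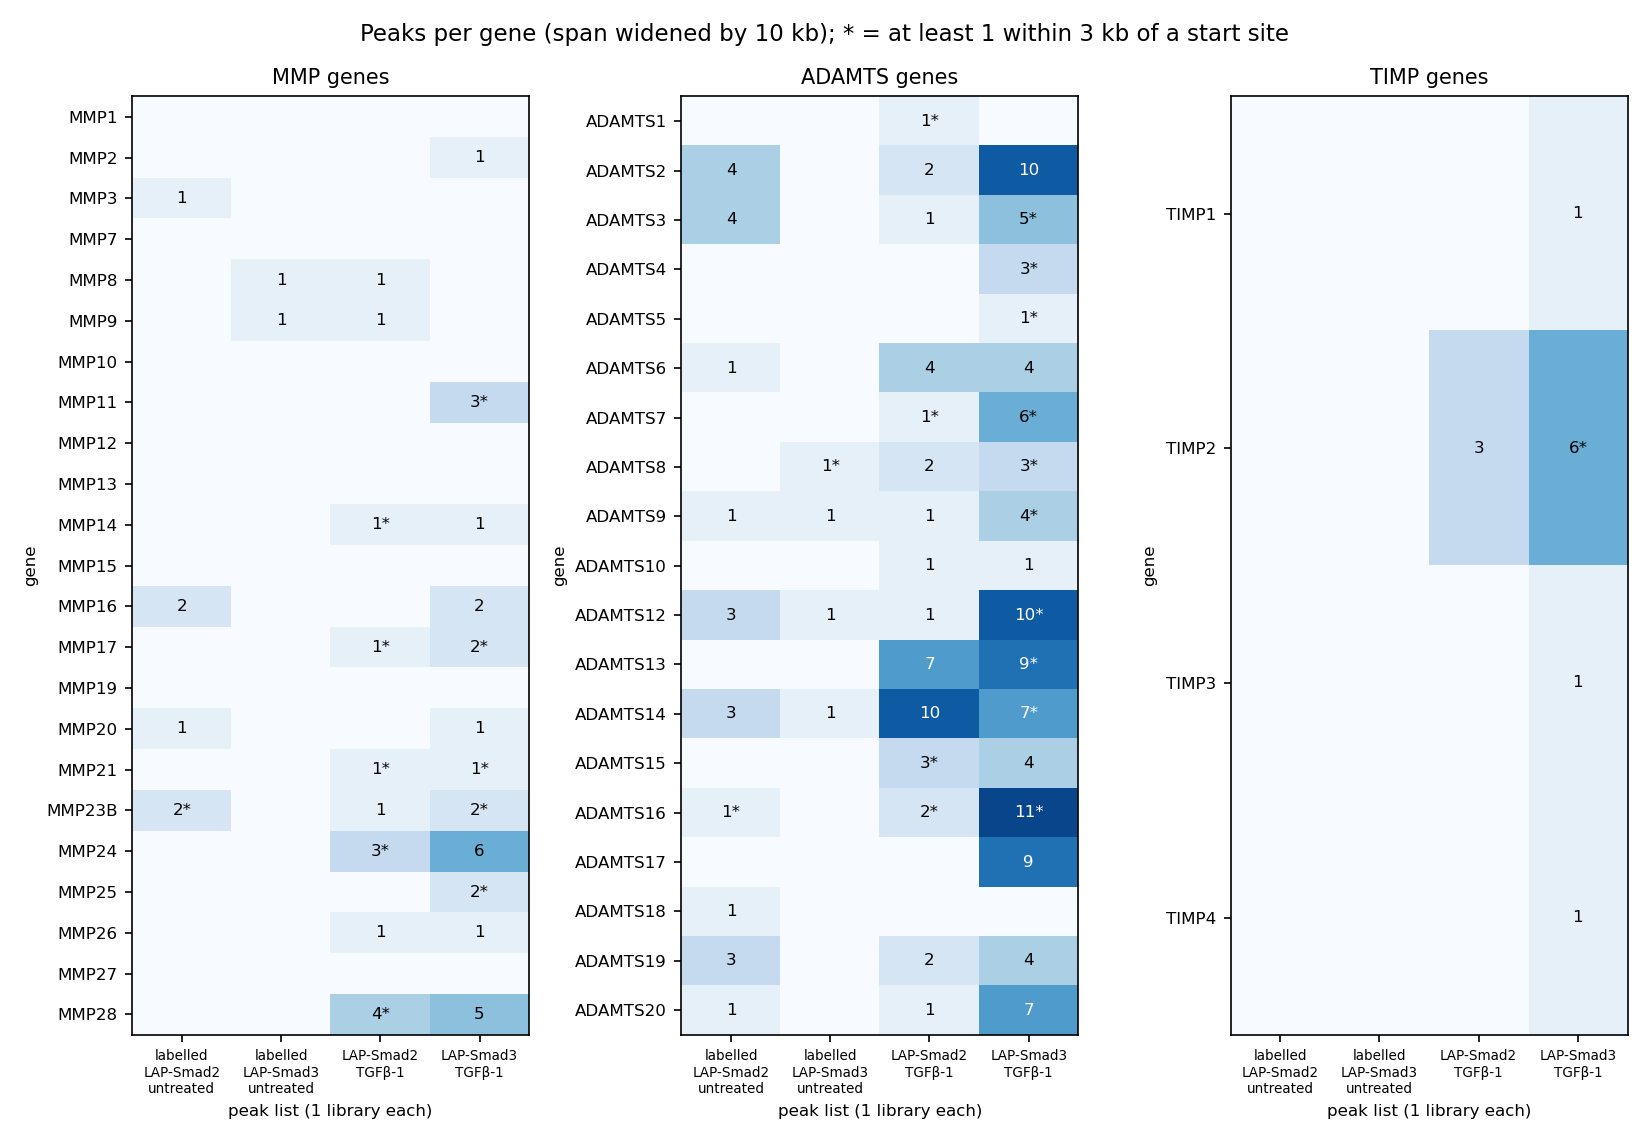
Number of peaks at each of the 46 genes (vertical axis, by family) in each of the 4 peak lists (horizontal axis, 1 library each), over the gene span widened by 10 kb, with darker cells for more peaks and an asterisk for a promoter peak. ADAMTS genes hold most of the peaks, up to 11 at ADAMTS16 in the LAP-Smad3 list with TGFβ-1, and 8 MMP genes have none in any list.

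The families differed in their counts. With TGFβ-1, 9 of 23 MMP genes had a peak in the LAP-Smad2 list (39.1%, interval 22.2 to 59.2) and 12 of 23 in the LAP-Smad3 list (52.2%, interval 33.0 to 70.8). For ADAMTS genes the counts were 15 of 19 (78.9%, interval 56.7 to 91.5) and 17 of 19 (89.5%, interval 68.6 to 97.1). Part of this gap goes with gene length, which has a median of 14.7 kb for MMP genes, 172 kb for ADAMTS genes and 33.6 kb for TIMP genes. Against genes of like length, the 23 MMP genes were lower in both lists (52.7% and 72.0% of the like-length genes had a peak), but this gap lay in 9 neighbouring genes of a cluster at 11q22. The 14 other MMP genes had a peak in 8 cases in the LAP-Smad2 list (57.1%, interval 32.6 to 78.6, like-length 54.8%) and in 11 in the LAP-Smad3 list (78.6%, interval 52.4 to 92.4, like-length 74.8%). Without the 9 clustered genes, the 37 other members had a peak in 64.9% and 86.5% of cases, above their like-length shares of 60.8% and 80.6%, where all 46 lay below theirs. The cluster was set apart after seeing the data. Since 1 of its 9 genes had a peak in each list, leaving it out raises the remaining share by construction. ADAMTS genes were higher in the LAP-Smad2 list (66.8%) and near their like-length genes in the LAP-Smad3 list (86.3%). The interval of each family share except that of the MMP genes in the LAP-Smad3 list spans its like-length share. Of the 4 TIMP genes, 1 had a peak in the LAP-Smad2 list and 4 had one in the LAP-Smad3 list, where the like-length genes had 53.5% and 73.4%. Over the 46 genes, the number of peaks per gene went with gene length with a Spearman rho of 0.38 (LAP-Smad2) and 0.66 (LAP-Smad3) after TGFβ-1, a description across genes that share each library.

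**Figure D2:**
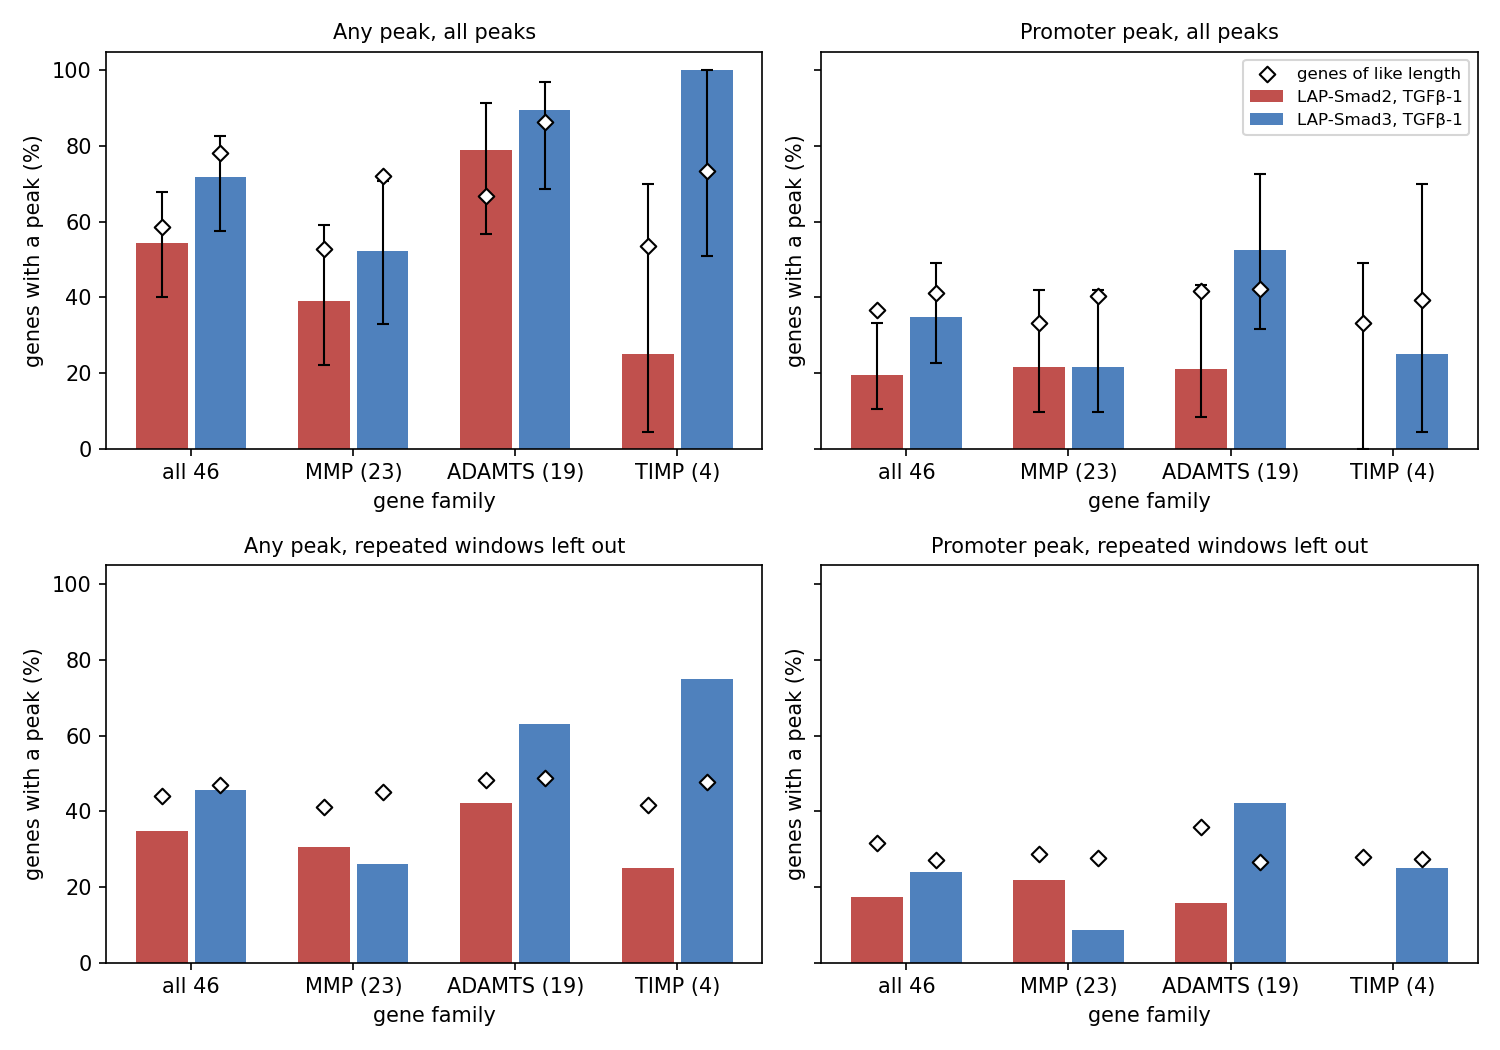
Percent of genes with any peak (left) or a promoter peak (right) on the vertical axis, by family, in the lists with TGFβ-1 (bars, with 95% Wilson intervals for all peaks in the upper panels), with repeated windows left out in the lower panels and genes of like length as diamonds. MMP genes sit below their like-length genes for any peak in both lists (39.1% against 52.7% and 52.2% against 72.0%), whereas the 14 MMP genes outside the 11q22 cluster, not drawn apart, had 57.1% and 78.6%.

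Peaks whose sequence recurs in the genome were marked, because reads from repeats can be placed at the wrong copy. A window counted as repeated when at least 50% of its bases lay in 16-base words found at 100 or more places of hg38, or when it aligned to a second place at 90% or more matching bases. By this measure 21 of 56 peaks at the genes were repeated in the LAP-Smad2 list with TGFβ-1 (37.5%, against 53.4% of that whole list) and 59 of 134 in the LAP-Smad3 list with TGFβ-1 (44.03%, against 64.5%). Windows of the same width placed every 20 kb along chromosome 1 met the first condition alone in 24.4% of cases, against 28.6% and 35.8% of the members' peaks after TGFβ-1. In the untreated library labelled LAP-Smad2, 27 of the 28 peaks at the genes were repeated (96.4%, against 93.1% of that whole list). A GC content of 40% or less was found in 10 of the 28 (35.7%, against 23.3% of that whole list). Without the repeated peaks, 1 gene kept a peak in that library, ADAMTS2, and 16 and 21 genes kept one in the LAP-Smad2 and LAP-Smad3 lists with TGFβ-1, against 44.04% and 46.9% of like-length genes (34.8% and 45.7% of the members). Among them were 7 and 6 of the 23 MMP genes (30.4% and 26.1%, like-length 41% and 45.1%) and 8 and 12 of the 19 ADAMTS genes (42.1% and 63.2%, like-length 48.2% and 48.9%). For MMP genes and any peak this again lay in the 11q22 cluster, since outside it 6 of 14 kept a peak in each list (42.9%, interval 21.4 to 67.4, like-length 41.7% and 45.1%). The ADAMTS intervals, 23.1 to 63.7 and 41.0 to 80.9, span their like-length shares.

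Promoter peaks, within 3 kb of any annotated start of the gene, were found at 9 of the 46 genes in the LAP-Smad2 list with TGFβ-1 (19.6%, interval 10.7 to 33.2), against 35.4% of other genes. In the LAP-Smad3 list with TGFβ-1 they were found at 16 genes (34.8%, interval 22.7 to 49.2), against 40.3% of other genes. The LAP-Smad3 count was 8 with the LAP-Smad3 list cut to the length of the LAP-Smad2 list, and 9 with promoters of 1 kb. The untreated lists had promoter peaks at 2 genes (labelled LAP-Smad2, background 5.66%), MMP23B and ADAMTS16, and at 1 gene (labelled LAP-Smad3, background 4.91%), ADAMTS8. The LAP-Smad2 promoter share with TGFβ-1 was the 1 share of these 4 whose interval lay below its background. Without the 9 genes of the 11q22 cluster it was 9 of 37 (24.3%, interval 13.4 to 40.1, like-length 38.3%), which spans the background. ADAMTS genes had 4 of 19 (21.1%, interval 8.51 to 43.3, like-length 41.7%), and this interval spans both the like-length share and the background. MMP genes outside the cluster had 5 of 14 (35.7%, like-length 35.0%). In the LAP-Smad3 list these counts were 10 of 19 (52.6%, like-length 42.3%) and 5 of 14 (35.7%, like-length 41.1%). Without repeated windows, 2 of 23 MMP genes kept a LAP-Smad3 promoter peak (8.70%, interval 2.42 to 26.8), an interval below the like-length share of 27.5%. Outside the cluster it was 2 of 14 (14.3%, interval 4.01 to 39.9), which spans the like-length 27.1%. In the LAP-Smad2 list 5 of 23 and 5 of 14 kept a promoter peak (21.7% and 35.7%, like-length 28.8% and 30.2%). Genes with a promoter of like CpG content to the 46 had a promoter peak in 32.9% of cases in the LAP-Smad2 list, inside the interval of 10.7 to 33.2, and in 39.2% in the LAP-Smad3 list. Peaks in the gene body away from promoters were at 14 genes (30.4%, background 20.9%) and 22 genes (47.8%, background 39.2%) in the LAP-Smad2 and LAP-Smad3 lists, with intervals of 19.1 to 44.8 and 34.1 to 61.9 that span these backgrounds. Genes of like length had body peaks in 25.8% and 46.5% of cases. Of the 56 distinct LAP-Smad2 peaks with TGFβ-1 at these genes 17.9% were promoter peaks, against 40.7% of the peaks at other genes, and of the 134 LAP-Smad3 peaks 17.2%, against 26.5%. These shares were not matched for gene length. By family the LAP-Smad2 share was 42.9% of 14 MMP peaks, 10.3% of 39 ADAMTS peaks and 0% of 3 TIMP peaks. The LAP-Smad3 shares were 18.5%, 16.3% and 22.2%.

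The promoter peaks were then set out by gene. Both lists with TGFβ-1 had one at 4 genes (ADAMTS7, ADAMTS16, MMP17 and MMP21), which is 8.70% of the members against 18.3% of other genes, the LAP-Smad2 list alone at 5 (MMP14, MMP24, MMP28, ADAMTS1 and ADAMTS15) and the LAP-Smad3 list alone at 12. The latter are 10.9% and 26.1% of the members, against 17.1% and 22% of other genes, so promoter peaks in 1 list alone were common among all genes. These 12 were ADAMTS3, ADAMTS4, ADAMTS5, ADAMTS8, ADAMTS9, ADAMTS12, ADAMTS13, ADAMTS14, MMP11, MMP23B, MMP25 and TIMP2. When the start of the canonical transcript of each gene was used in place of any annotated start, the LAP-Smad2 list kept 9 genes, among them 5 MMP genes (MMP14, MMP17, MMP21, MMP24 and MMP28). The LAP-Smad3 list then held 10 genes, 9 ADAMTS genes and TIMP2, and no MMP gene. The 5 MMP genes with a LAP-Smad3 promoter peak, MMP11, MMP17, MMP21, MMP23B and MMP25, had it at the start of another transcript. Against the 28.5% and 25.1% of other genes with a peak near the canonical start, the members had 19.6% and 21.7%. ADAMTS16 was the 1 gene with a peak near the canonical start in both lists, and both of those peaks were repeated sequence.

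The promoter peaks also differed in composition and position. The 10 LAP-Smad2 promoter windows with TGFβ-1 had a GC content from 58.5% to 80% with a median of 71%, and 8 of the 10 lay within 1 kb of a start, at a median distance of 471 bp. The 23 LAP-Smad3 promoter windows ranged from 53% to 70% with a median of 59%, and 9 of the 23 lay within 1 kb, at a median distance of 1273 bp. Distances were not taken for promoter peaks of other genes, so the difference in position has no background. This GC difference between the lists was not particular to these genes: over all member peaks the mean was 65.1% ± 8.95 (SD, n = 56) and 58.9% ± 6.58 (SD, n = 134), and over the whole lists it was 63.8% and 58.5%. Which of tag, library and depth goes with it cannot be told apart with 1 library per condition.

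**Figure D3:**
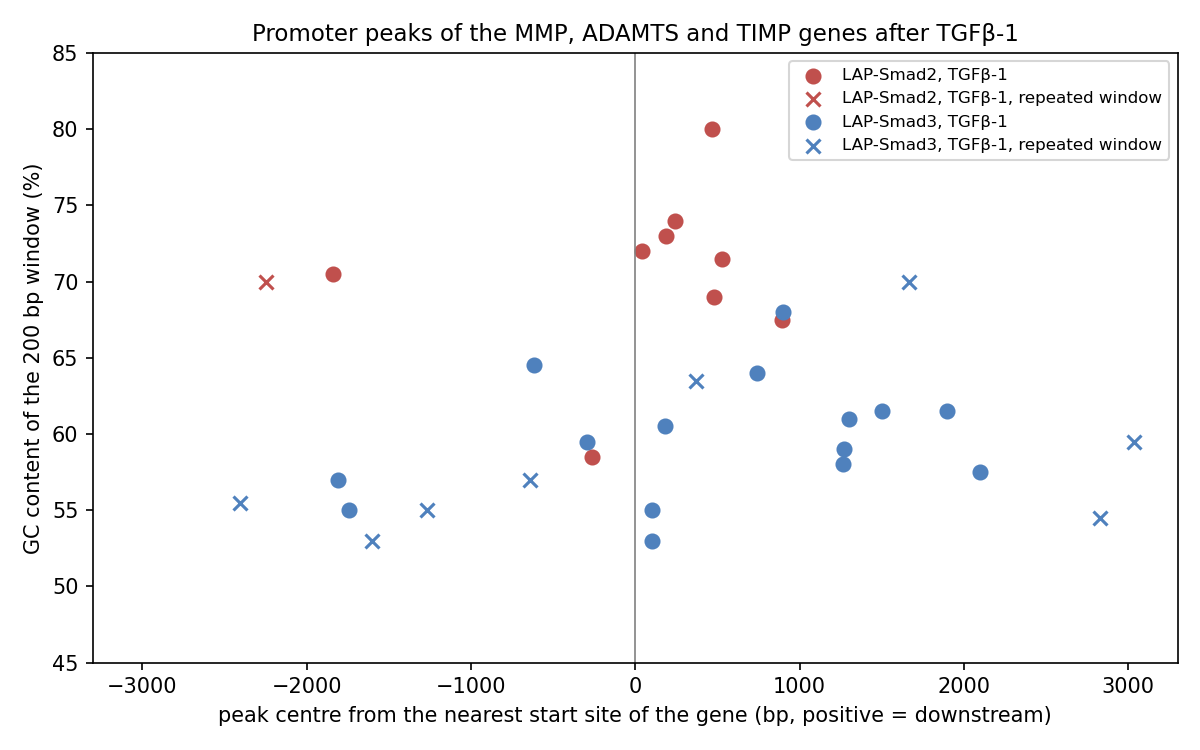
Promoter peaks at the genes in the lists with TGFβ-1, placed by distance from the gene's nearest annotated start (horizontal axis, bp) and by GC content of the central window (vertical axis, %), with 1 point per peak, the 2 tagged Smads in separate colours and crosses for repeated windows. LAP-Smad2 peaks lie higher in GC and nearer to the start (medians 71% and 471 bp) than LAP-Smad3 peaks (59% and 1273 bp). The GC difference was also seen over the whole lists, and the distance has no background from other genes.

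The collagenases, the secreted MMPs that cut fibrillar collagen, had almost no peaks. All 3 lie in the 11q22 cluster, where 6 of the 9 genes had no peak in any list, so this was not particular to collagenases. Of the collagenases (MMP1, MMP8 and MMP13), 1 had a LAP-Smad2 peak with TGFβ-1 and 0 of 3 had a LAP-Smad3 peak. That peak lay upstream of MMP8, the neutrophil collagenase, at a −log10 q of 6.73 and a fold enrichment of 4.73, and the untreated library labelled LAP-Smad3 had a peak there too, at a −log10 q of 4.36. MMP1 and MMP13, the interstitial collagenase and the collagenase of cartilage and bone, had none. The gelatinases, which cleave denatured collagen and basement membrane, each had 1 peak after TGFβ-1. For MMP9 it was in the LAP-Smad2 list (−log10 q 6.78, downstream of the gene at the start of SLC12A5). For MMP2 it was in the LAP-Smad3 list (−log10 q 4.40, repeated), inside the annotated span and so classed as gene body. That MMP2 peak lay 41565 bp after an annotated start but ended 47821 bp before the canonical one. It was 2516 bp from a start of MMP2-AS1. Neither gelatinase had a promoter peak, and MMP9 also had a peak in the untreated library labelled LAP-Smad3 (−log10 q 2.32). The stromelysin group, with the broad-range proteases MMP3 and MMP10, had no LAP-Smad2 peak with TGFβ-1, and MMP11 alone of the 3 had LAP-Smad3 peaks. Its promoter peak, 641 bp before a start, had a fold of 5.57 and a −log10 q of 6.34 and was repeated sequence. Of the matrilysins, small MMPs without a hemopexin domain, MMP26 had 1 gene-body peak in each list with TGFβ-1, both repeated, and MMP7 had none.

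Of the MMP genes, 9 lie side by side in a cluster at 11q22 (chr11:102520508-102955732, hg38, 435 kb): MMP7, MMP20, MMP27, MMP8, MMP10, MMP1, MMP3, MMP12 and MMP13. The cluster had 0 promoter peaks in any of the 4 lists. After TGFβ-1 it held 1 LAP-Smad2 peak (2.30 per Mb, against 8 per Mb in the 1 Mb on each side and 12.3 over the chromosome) and 3 LAP-Smad3 peaks (6.89 per Mb, against 12 and 24.7). Besides the MMP8 peak, the intron of MMP20, the enamel protease, had a LAP-Smad3 peak with a −log10 q of 8.47, the highest among MMP peaks in that list, in a repeated window. MMP3 had a peak only in the untreated library labelled LAP-Smad2, also repeated, and the other 6 genes had none in any list. The cluster promoters were poor in CpG: their median GC content was 40.7% and their median ratio of observed to expected CpG was 0.213, against 63.7% and 0.775 for other protein-coding genes. These values stand beside the low peak count, and their part in it was not tested.

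Membrane-type MMPs, which are anchored at the cell surface and activate other MMPs, had more peaks and lie outside the cluster. Of the 6 genes (MMP14, MMP15, MMP16, MMP17, MMP24 and MMP25), 3 had a LAP-Smad2 peak with TGFβ-1 and 5 a LAP-Smad3 peak, and MMP15 had none. Among other protein-coding genes 55.9% and 74.3% had a peak in these lists, and 6 genes are too few to set apart from that. MMP14, the enzyme that activates pro-MMP2, had 1 LAP-Smad2 peak, 186 bp after an annotated start and 913 bp after the canonical one, with a fold of 4.51 and a −log10 q of 6.03. Its LAP-Smad3 peak lay in the gene body instead, at a −log10 q of 3.84, and neither untreated list had a peak at the gene. MMP24 had 3 LAP-Smad2 and 6 LAP-Smad3 peaks, and the LAP-Smad2 peak 465 bp after its start (fold 3.77, −log10 q 4.25) had the most GC-rich promoter window, at 80%. The highest −log10 q of an MMP in the LAP-Smad2 list with TGFβ-1, 10.7, was in an MMP24 intron, but that window aligned to other places of the genome. MMP17, which is held in the membrane by a lipid anchor, had promoter peaks in both lists, with a −log10 q of 3.06 for LAP-Smad2 and 3.81 for LAP-Smad3, at separate starts. MMP25, another lipid-anchored enzyme, had a repeated promoter peak in the LAP-Smad3 list (−log10 q 5.34), and both LAP-Smad3 peaks of MMP16 were repeated too.

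Of the 7 remaining MMP genes, 3 had LAP-Smad2 and 4 LAP-Smad3 peaks with TGFβ-1. MMP28, epilysin, had 4 LAP-Smad2 peaks, of which 2 were promoter peaks (fold 4.53 and −log10 q 6.34 at 1838 bp before an alternative start, and fold 3.56 and −log10 q 2.95 at 266 bp before one). Its density in that list, 67.3 per Mb, was above the 14.5 per Mb of the 1 Mb on each side, while in the LAP-Smad3 list it was 84.1 against 79 per Mb. All 5 of its LAP-Smad3 peaks lay outside promoters. MMP21, a secreted MMP known for its part in left-right patterning, had a LAP-Smad2 peak 43 bp after a start (fold 3.82, −log10 q 4.11) and a separate LAP-Smad3 peak 1267 bp after one (fold 6.07, −log10 q 5.63), and no untreated peak. MMP23B had repeated peaks in 3 lists, with the highest −log10 q, 11.7, in the untreated library labelled LAP-Smad2.

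The ADAMTS proteoglycanases cleave aggrecan and versican, and 5 of the 7 had a LAP-Smad2 peak with TGFβ-1 and 6 a LAP-Smad3 peak. ADAMTS4 and ADAMTS5, the main aggrecanases, had peaks in the LAP-Smad3 list with TGFβ-1 alone. ADAMTS4 had 3, of which the highest lay 1900 bp after an alternative start and 5203 bp after the canonical one (fold 6.57, −log10 q 6.58), and ADAMTS5 had 1, placed 616 bp before its start (fold 4.41, −log10 q 3.08). ADAMTS1 went the other way, with 1 LAP-Smad2 peak 527 bp after its start (fold 3.56, −log10 q 2.95) and none in the other 3 lists. ADAMTS15 had the highest LAP-Smad2 promoter value of the set, a fold of 5.22 and a −log10 q of 8.63 at 240 bp after its start, and its 4 LAP-Smad3 peaks lay outside the promoter. ADAMTS8 had a LAP-Smad3 promoter peak 897 bp after its start that overlapped a peak of the untreated library labelled LAP-Smad3. ADAMTS9 had 2 LAP-Smad3 promoter peaks, the higher at 741 bp after an annotated start and 2131 bp after the canonical one (fold 6.76, −log10 q 7.08). ADAMTS20 had 1 LAP-Smad2 and 7 LAP-Smad3 peaks, all 8 repeated.

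The 3 procollagen N-proteinases, ADAMTS2, ADAMTS3 and ADAMTS14, trim the amino-terminal propeptide of fibrillar procollagens, and all of them had peaks in both lists with TGFβ-1. ADAMTS14 had the most LAP-Smad2 peaks of any member, 10, all in the gene body and 3 of them repeated, which gave 91.0 per Mb against 33.5 per Mb in the 1 Mb on each side. Its LAP-Smad3 density was 63.7 per Mb, against 55.5. The LAP-Smad2 peaks ranged from a −log10 q of 3.57 to 7.81, and the gene had 7 LAP-Smad3 peaks, of which 1 was a promoter peak (fold 5.52, −log10 q 4.72). ADAMTS2 had 2 LAP-Smad2 peaks, both repeated, and 10 LAP-Smad3 peaks, of which 5 were not. ADAMTS3 had 1 LAP-Smad2 peak, repeated, and 5 LAP-Smad3 peaks, of which the promoter peak, in an intron 882 bp after the canonical start and 294 bp before another (fold 4.41, −log10 q 3.17), was the 1 outside repeats. In the untreated library labelled LAP-Smad2 these 3 genes had 11 peaks, 10 of them repeated.

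ADAMTS7 and ADAMTS12, which cleave cartilage oligomeric matrix protein, had 1 LAP-Smad2 peak each with TGFβ-1. ADAMTS12 had 10 LAP-Smad3 peaks, with a promoter peak 149 bp after its canonical start (fold 4.97, −log10 q 3.84) and gene-body peaks up to a −log10 q of 7.98 (7.63 outside repeats). The 6 LAP-Smad3 peaks of ADAMTS7 all had a second alignment in the genome, so they cannot be placed there with certainty. Its LAP-Smad2 peak 709 bp after its canonical start (fold 4.04, −log10 q 4.05) was not repeated, but lay 150 bp from a start of MORF4L1. ADAMTS13, which cleaves von Willebrand factor in plasma, had 7 LAP-Smad2 and 9 LAP-Smad3 peaks with TGFβ-1, none of them repeated and none in an untreated list. Its LAP-Smad2 density of 108 per Mb was above the 33.5 per Mb of its surroundings, while the LAP-Smad3 density of 138 per Mb was close to their 129. Its 3 LAP-Smad3 promoter peaks had −log10 q values of 2.52, 4.72 and 3.08, and its LAP-Smad2 peaks lay outside the promoter. Among the latter were peaks 2 and 192 bp from a start of REXO4.

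Among the remaining ADAMTS genes, 4 of 6 had a LAP-Smad2 peak with TGFβ-1 and 5 a LAP-Smad3 peak. ADAMTS16 had the most LAP-Smad3 peaks of the set, 11, which gave 55.0 per Mb against 16 per Mb in the 1 Mb on each side (LAP-Smad2 10.0 against 5), and 4 of the 11 were repeated. ADAMTS17 had 9 LAP-Smad3 peaks, 6 of them not repeated, and no peak in the other 3 lists. ADAMTS18 was the reverse, with no peak after TGFβ-1 and 1 repeated peak in the untreated library labelled LAP-Smad2. ADAMTS19 held the highest −log10 q of the set in that library, 26.9, and each of its 9 peaks in the 3 lists that had any was repeated.

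Of the inhibitors, TIMP2 had the highest LAP-Smad3 promoter value of the set. TIMP2 inhibits MMPs and also helps MMP14 to activate pro-MMP2. Its promoter peak with TGFβ-1 lay 1302 bp after its start, with a fold of 7.55 and a −log10 q of 9.16, which placed it 3170th of the 62551 peaks of the list. The gene had 6 LAP-Smad3 and 3 LAP-Smad2 peaks after TGFβ-1 and none in the untreated lists. TIMP1, TIMP3 and TIMP4 had 1 LAP-Smad3 peak each (−log10 q 4.72, 3.84 and 4.43), none in a promoter, and no LAP-Smad2 peak. The TIMP4 peak was repeated sequence, so 3 of the 4 TIMP genes kept a LAP-Smad3 peak without repeated windows. For the LAP-Smad2 promoter count of 0 of 4 TIMP genes the interval reaches 48.99%, so a difference from other genes was not detectable with 4 genes.

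The number of peaks per length did not set the genes apart. With TGFβ-1 the widened genes held 11.1 LAP-Smad2 peaks per Mb, against 11 at other genes, and 26.5 LAP-Smad3 peaks per Mb, against 25.5. By family the LAP-Smad2 values were 9.38 per Mb for MMP, 11.7 for ADAMTS and 13.4 for TIMP genes, and the LAP-Smad3 values were 18.1, 29.4 and 40.2. Against the 1 Mb on each side, 19 of the 46 genes were denser in LAP-Smad2 peaks (8 MMP, 10 ADAMTS and 1 TIMP) and 25 in LAP-Smad3 peaks (9, 13 and 3). This was not counted for other genes, so these numbers have no background. A gene with no peak cannot be denser than its sides, so they partly repeat how many genes had a peak. Introns held 28 of the 56 LAP-Smad2 peaks and 87 of the 134 LAP-Smad3 peaks.

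**Figure D4:**
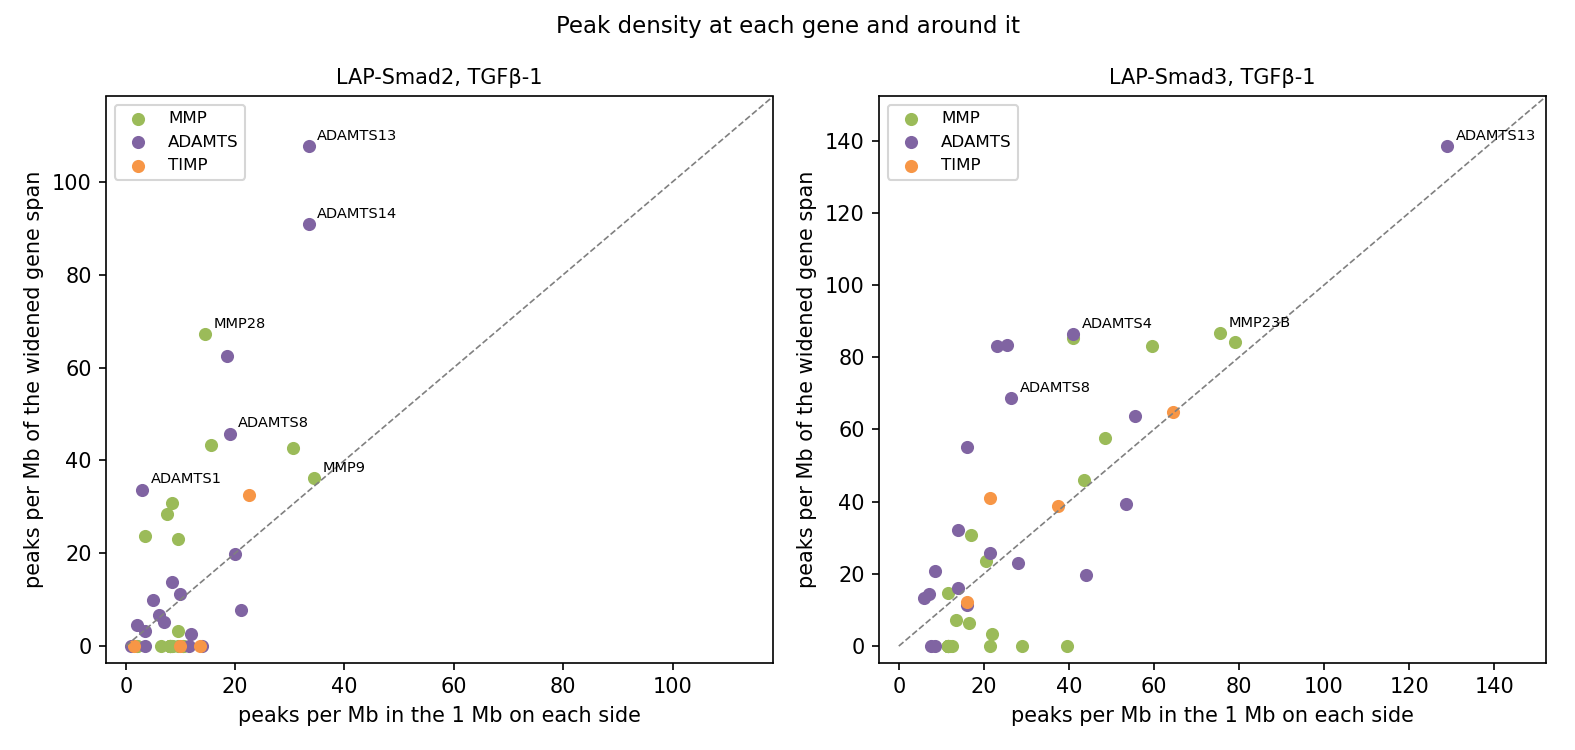
Peaks per Mb over each widened gene (vertical axis) against peaks per Mb in the 1 Mb on each side (horizontal axis) in the lists with TGFβ-1, with 1 point per gene coloured by family and the line of equal density. ADAMTS13 and ADAMTS14 stand above the line in the LAP-Smad2 list (108 and 91.0 per Mb, each against 33.5), while in the LAP-Smad3 list they lie near it (138 against 129 and 63.7 against 55.5).

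Single sites were rarely shared between the Smads. Of the 56 LAP-Smad2 peaks with TGFβ-1 at the genes, 10 overlapped a LAP-Smad3 peak with TGFβ-1 (17.9%, interval 10.0 to 29.8, against 24.5% of the whole list), which is 7.46% of the 134 LAP-Smad3 peaks (interval 4.10 to 13.2, against 10.6%). The 10 sites lay at 9 genes, 8 of them ADAMTS genes and the other TIMP2, none was a promoter peak, and 4 were not repeated sequence. Of these 4, the TIMP2 site lay upstream of the gene with summits 12 bp apart and −log10 q values of 4.17 and 2.52. The ADAMTS13, ADAMTS14 and ADAMTS16 sites lay in the gene body with summits 169, 156 and 138 bp apart. The ADAMTS13 site was also at a start of REXO4, 2 bp from the LAP-Smad2 peak and inside the LAP-Smad3 peak. The highest shared values were at the ADAMTS9 upstream site, with −log10 q of 19.8 for LAP-Smad2 and 11.3 for LAP-Smad3 and folds of 8.19 and 7.68. Both untreated lists had a peak at this repeated site, with −log10 q of 10.2 (labelled LAP-Smad2) and 20.3 (labelled LAP-Smad3), so it was not particular to TGFβ-1.

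Motif matches were counted on both strands of the central 200 bases. The Smad sequence CAGAC was in 39.3% of LAP-Smad2 peaks at the genes with TGFβ-1 (interval 27.6 to 52.4, whole list 35.0%) and in 42.5% of LAP-Smad3 peaks (interval 34.5 to 51.0, whole list 34.5%). GGCGC was in 55.4% (whole list 56.8%) and 36.6% (whole list 43.2%). AP-1, a factor known to act at many MMP promoters, binds TGANTCA, and this was in 10 of 134 LAP-Smad3 peaks (7.46%, interval 4.10 to 13.2), against 2.63% of the whole list. Outside repeated windows the LAP-Smad3 share was 9 of 75 (12%), against 4.47% of the list, and the LAP-Smad2 share was 1 of 35 (2.86%, list 1.79%). With repeated windows it was 1 of 56 (1.79%, list 1.32%). The 10 peaks lay at 10 separate genes (MMP14, MMP16, MMP17, MMP24, ADAMTS3, ADAMTS8, ADAMTS9, ADAMTS12, ADAMTS13 and ADAMTS17), and 3 of them were promoter peaks, at ADAMTS3, ADAMTS9 and ADAMTS12. With 10 peaks and several motifs counted, this is a description of these lists and the match is not evidence of binding.

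Other genes of matrix proteolysis gave a setting for these counts. Of 46 listed genes, 45 were found by symbol, and 24 of them had a LAP-Smad2 peak with TGFβ-1 (53.3%) and 41 a LAP-Smad3 peak (91.1%). Promoter peaks were at 13 (28.9%) and 26 (57.8%) of them, against 9 and 16 of the 46 MMP, ADAMTS and TIMP genes (19.6% and 34.8%). Among all protein-coding genes outside the 46, 55.9% and 74.3% had a peak and 35.4% and 40.3% a promoter peak. The listed genes were not matched for length, and each group below is too small to set apart from these shares. In the plasminogen system, which activates several pro-MMPs, 4 and 6 of 7 genes had a peak, with promoter peaks at 2 and 4. Of 9 further MMP regulators, 7 and 9 had a peak, and of 7 ADAM genes, the membrane-bound relatives, 2 and 6 did. The ADAMTS-like genes, which lack the proteinase domain, had peaks at 5 and 6 of 7. The astacins, with the procollagen C-proteinases, had peaks at 2 and 5 of 5, and the cathepsins at 1 and 4 of 5. All 5 listed substrates had a LAP-Smad3 peak and 3 a LAP-Smad2 peak.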

How the data were processed

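Peaks were deposited as 1 list for each of 4 libraries. Per the paper's methods, the authors used Bowtie2 for alignment to hg38, a read extension of 200 bp and MACS2 with a q-value limit of 0.05, and each list was used whole. The deposited values used were the fold enrichment, a ratio over the local background, the −log10 p-value and −log10 q-value, and the summit offset. These scores are not on a common scale between lists. Read counts were not given, so depth was unknown.

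Peaks were joined to protein-coding GENCODE 44 genes widened by 10 kb (minimum overlap 1 bp) and classed as promoter (within 3 kb of a start of the gene), body or flank. Members, gene lists and tests were chosen with earlier results of these data known. Genes were named by family, enzyme class, promoter peaks, highest −log10 q and number of peaks, and other genes named in the text were picked after their values were seen. Like-length and like-CpG genes were the 400 nearest to each member (200 on either side). The like-CpG comparison, the canonical starts and the rule on 16-base words were added after seeing the data, the last since minimap2 misses very common repeats. Sequences were taken from hg38 by script. Windows in an untranslated region or in repeats were left out of the printed sequences. Python 3.11.15, numpy 2.4.6, pandas 2.3.3, scipy 1.17.1, statsmodels 0.14.6, pysam 0.24.0, matplotlib 3.10.9 and minimap2 2.31 were used. The counting steps were tested on simulated data, and 4 of 4 checks passed. Alternatives were a stricter q-value, summit positions, narrower spans and promoters, lists of equal length, and lists without repeated windows.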

Additional observations from a re-analysis of the deposited data

How the results depend on the processing

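No paired analysis was possible because each condition had 1 library. Of 130 values recomputed under alternatives, 100 moved by less than their counting interval or 1.5 times. Without windows that have a copy elsewhere, the untreated library labelled LAP-Smad2 had a peak at 6 genes, 0 promoter genes, 8 peaks and a mean GC of 30.9%, and 5 sites were shared between the TGFβ-1 lists. Without repeated windows it had 1 gene, 0 promoter genes and 1 peak, the LAP-Smad2 list with TGFβ-1 had 16 genes and 35 peaks, the LAP-Smad3 list 21 genes and 75 peaks, and 4 sites were shared. With the LAP-Smad3 list cut to the length of the LAP-Smad2 list it had 8 promoter genes and 50 peaks, and 4 sites were shared. With every list cut to the shortest, the untreated library labelled LAP-Smad2 had 8 genes and 10 peaks, the LAP-Smad2 list 9 and 10, and the LAP-Smad3 list 2 and 2. The gene span alone left 2 genes and 2 peaks in the untreated library labelled LAP-Smad3. Promoters of 1 kb left 1 gene in the untreated library labelled LAP-Smad2 and 9 in the LAP-Smad3 list with TGFβ-1, and canonical starts left 10 there. Without peaks near another gene's start, the untreated library labelled LAP-Smad2 had 1 promoter gene. A mutual overlap of 50% left 6 shared sites, and summits within 100 bp left 5. The member share minus the like-length share after TGFβ-1 was recomputed with each list and setting counted apart. It was below 0 in 12 of these 13 values, the exception being the LAP-Smad3 list without copies (0.571 percentage points). Leaving out the 11q22 cluster, chosen after seeing the data, turned it in both lists (64.9% against 60.8%, and 86.5% against 80.6%). With 1 library per condition and unknown depth, the list lengths and the conditions cannot be told apart.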
